A study of Mus musculus with 12 samples.

Results

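This account follows 36 genes of cholesterol and fatty acid synthesis, of sterol uptake, transport and efflux, and of the proteins that regulate them, in cultured mouse mast cells with and without the chemokine receptor ACKR2. The genes were taken by name, and a gene counted as measured where a probe set of the array carried its symbol and no other. By that rule 34 of the 36 were measured, out of 19938 genes in all. Acat2 and Nr1h2 had no such probe set, so their expression was not analysed here. For Idi1, Fdft1 and Acaca, which had 2 probe sets each, the probe set with the higher mean was used. The 34 fall into 6 genes of the mevalonate arm, 11 from squalene to cholesterol, 5 of the control of sterol regulatory element binding proteins, 5 of fatty acid synthesis and 7 of transport, efflux and the liver X receptor.

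The study hybridised 12 RNA samples, 3 in each of 4 groups: ACKR2-/- cells at 10 weeks of culture, wild type cells at 10 weeks, ACKR2-/- cells at 2 weeks, and wild type cells at 2 weeks. Wild type means C57BL/6, and the strain background of the ACKR2-/- mice, also named D6-/-, is not stated in the labels beyond that name. By the labels, all cultures were started from the marrow of female mice 4 to 6 weeks old. They were cultured in interleukin 3 at 10 ng/ml plus stem cell factor at 12.5 ng/ml. Each array received target made from 250 ng of RNA. The protocol describes a homogeneous mast cell population only from 4 weeks on, and purification of some 2-week cells through CD117, without saying for which arrays. Which part of the Ackr2 gene was deleted is not given in the sources used here. The arrays of a group are called biological replicates with no animal or culture named, so the p-values measure the spread between these samples. Values are log2 signals, and differences between samples are differences of log2 signals. Levels of different genes are not compared, because each probe set has its own response.

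Animal cells build cholesterol from acetyl-CoA through mevalonate, isoprenoids, squalene and lanosterol, and long-chain fatty acids from cytosolic acetyl-CoA through malonyl-CoA. When membrane sterol is low, SCAP carries the SREBP precursors from the endoplasmic reticulum to the Golgi, where they are cut and released to activate the genes of both pathways. Insig proteins hold SCAP back when sterol is high, and liver X receptors, which bind oxysterols, switch on efflux transporters. In mast cells the IgE receptor signals from cholesterol-rich domains of the plasma membrane.

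Promoters of the listed genes, enzymes and others together, were searched for short sequences that the choice of the genes did not use. RefSeq promoter windows of the mouse assembly GRCm38.p6, from 250 bases before to 50 bases after the start, were on hand for 28 of the 36 genes, 26 of them with measured expression. On either strand, the CCAAT box (CCAAT, or ATTGG on the opposite strand) stood in windows of 22 of these 28 genes (78.6%), against 42.3% of 17492 protein-coding genes with windows of the same length. The GC box (GGGCGG or CCGCCC) stood in 23 of 28 (82.1%), against 49.2%. A core of the sterol regulatory element (TCACNCCA, or TGGNGTGA on the opposite strand) was present in 3 of 28 (10.7%), against 4.66%, namely in Hmgcs1, Msmo1 and Srebf2. The E-box CACGTG, which reads the same on both strands, stood in 6 of 28 (21.4%), against 8.91%. All 9 genes from squalene to cholesterol with a window held both a CCAAT box and a GC box. A match describes letters, not binding, and a missing match says only that those letters are not in the window. Below are the 180 bases before the start for 7 genes, chosen because they hold the sterol element core or stand for enzymes described further on. They are written 5′ to 3′ on the gene's strand, with the sterol element core and the CCAAT box in capitals.
Hmgcs1 (chr13:119690171-119690350, + strand): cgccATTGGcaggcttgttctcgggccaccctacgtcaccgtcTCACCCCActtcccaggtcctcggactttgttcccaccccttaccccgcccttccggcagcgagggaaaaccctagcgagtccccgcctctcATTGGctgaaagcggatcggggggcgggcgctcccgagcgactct
Idi1 (chr13:8885426-8885605, + strand): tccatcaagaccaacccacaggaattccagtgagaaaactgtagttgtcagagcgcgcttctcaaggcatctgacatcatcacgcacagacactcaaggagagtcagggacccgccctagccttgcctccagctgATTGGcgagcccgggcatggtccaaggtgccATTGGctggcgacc
Lss (chr10:76531425-76531604, + strand): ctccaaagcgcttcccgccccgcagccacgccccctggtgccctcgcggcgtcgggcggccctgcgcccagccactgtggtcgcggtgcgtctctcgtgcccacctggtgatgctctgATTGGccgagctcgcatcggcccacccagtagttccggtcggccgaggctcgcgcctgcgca
Msmo1 (chr8:64733579-64733758, - strand): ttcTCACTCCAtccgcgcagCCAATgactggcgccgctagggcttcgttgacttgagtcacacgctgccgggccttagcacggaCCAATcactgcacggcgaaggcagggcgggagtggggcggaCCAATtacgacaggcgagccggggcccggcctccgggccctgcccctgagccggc
Nsdhl (chrX:72918341-72918520, + strand): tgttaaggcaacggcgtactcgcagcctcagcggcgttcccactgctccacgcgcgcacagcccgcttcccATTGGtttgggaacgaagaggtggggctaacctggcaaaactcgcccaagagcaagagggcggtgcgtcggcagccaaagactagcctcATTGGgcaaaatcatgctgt
Srebf2 (chr15:82147089-82147268, + strand): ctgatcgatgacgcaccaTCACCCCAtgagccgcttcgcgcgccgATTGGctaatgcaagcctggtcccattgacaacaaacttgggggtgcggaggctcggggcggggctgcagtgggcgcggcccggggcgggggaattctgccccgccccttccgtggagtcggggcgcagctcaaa
Fasn (chr11:120824548-120824727, - strand): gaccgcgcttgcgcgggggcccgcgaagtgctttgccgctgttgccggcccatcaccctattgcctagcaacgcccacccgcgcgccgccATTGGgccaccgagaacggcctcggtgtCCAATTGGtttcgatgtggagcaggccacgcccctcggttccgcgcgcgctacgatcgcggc

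Before the results, 4 of the 12 arrays must be set apart: all 3 ACKR2-/- 2-week arrays and wild type 2-week array 3. The 14 measured mast cell markers averaged 6.65 to 6.80 on these 4 arrays, against 11.91 to 12.60 on the other 8. Fcer1a, the alpha chain of the IgE receptor, was at 5.47 or below on the 4 and at 13.74 or above on the 8. Kit, the stem cell factor receptor (CD117), lay between 7.51 and 9.18 on the 4 and at 13.61 or above on the 8. Xist lay between 5.77 and 6.23 on the 4, against at least 13.00 elsewhere, and Kdm5d, a Y-linked gene, between 10.06 and 10.51 against at most 6.42, although the labels give female mice throughout. B cell markers averaged 9.32 to 11.64 on the 4 and at most 7.19 on the 8, and T and NK cell markers 8.74 to 11.45 against at most 7.28. Over all genes, ACKR2-/- 2-week arrays 1 and 2 correlated at 0.998 with each other, and at 0.996 and 0.997 with wild type 2-week array 3. With ACKR2-/- 2-week array 3 they correlated at 0.965 and 0.966. No animal or culture is named, so whether the 3 ACKR2-/- 2-week arrays are independent samples could not be checked. Ackr2 itself read 8.34, 8.16 and 8.25 on ACKR2-/- 10-week arrays against 7.88, 8.26 and 8.35 on wild type ones, and 8.39, 7.79 and 9.43 against 8.19, 8.29 and 8.38 at 2 weeks, so it did not separate the genotypes. Comparisons with the 2-week groups below therefore set arrays without mast cell transcripts against arrays with them, in whole or in part. Here and below, arrays said to lack these transcripts, or to be without them, are arrays with low marker signals, and some transcript may remain. In such bulk samples fewer cells of a type and less RNA per cell cannot be told apart by the signals of that type's markers. The Xist and Kdm5d signals of the 4 arrays do not match their label of female mice. Where the RNA of these arrays came from was not tested.

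**Figure D1:**
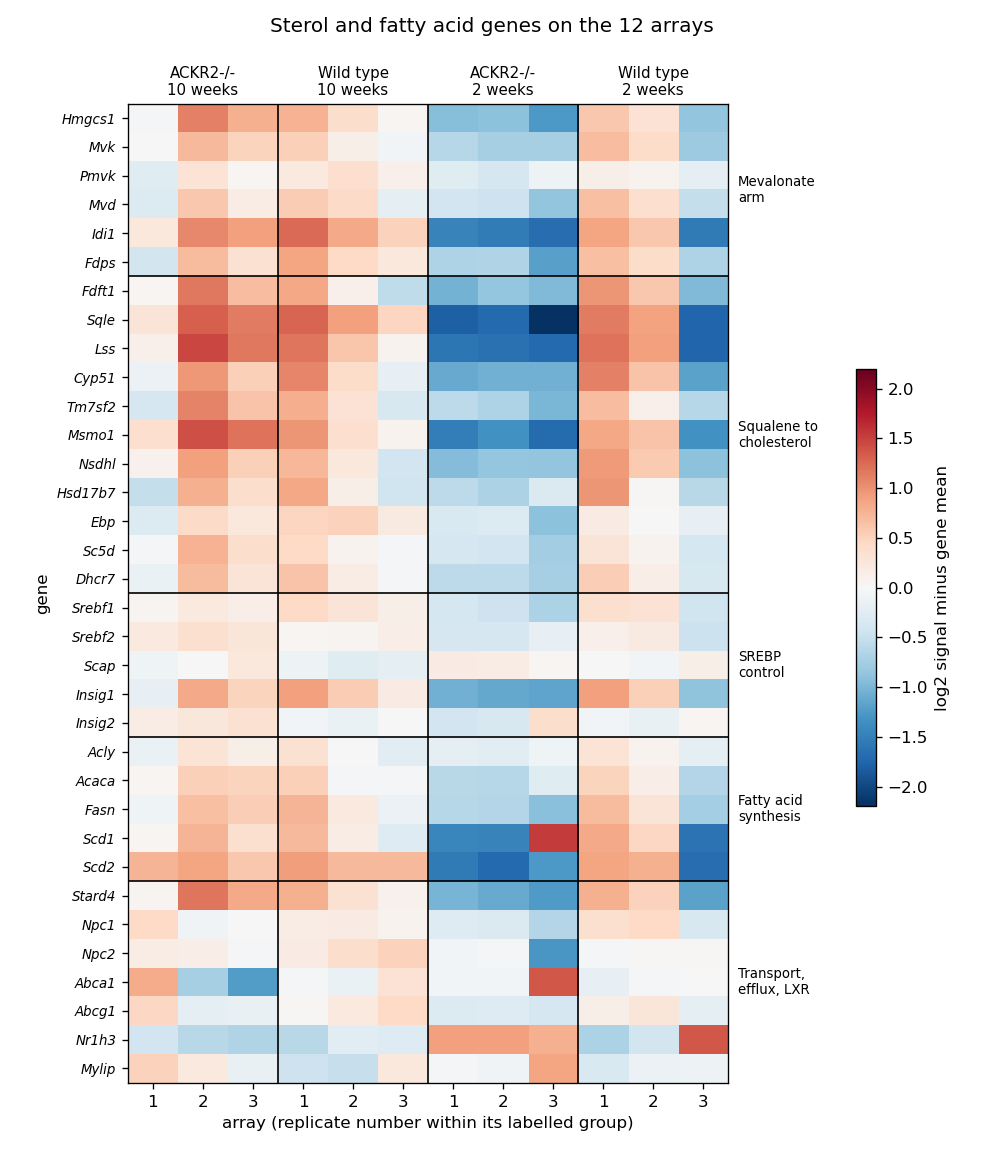
Each row is 1 of the 34 measured genes, grouped by role, and each column is 1 array, grouped by label. Colour gives the log2 signal minus the gene's mean over the 12 arrays. Most synthesis genes are low on the 3 ACKR2-/- 2-week arrays and wild type 2-week array 3, and at 10 weeks ACKR2-/- array 1 and wild type array 3 are lower than the other 4 arrays in most sterol enzymes.

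The first question was whether the genotypes differed at 10 weeks, when all 6 arrays carried mast cell transcripts. No lipid gene passed the threshold: 0 of the 34 were called, as were 0% of all 19938 genes (limma, adjusted p under 0.05 after Benjamini-Hochberg). Without adjustment, 1 of the 34 (2.94%) and 2102 of all genes (10.5%) had a p under 0.05. The median difference, ACKR2-/- minus wild type, was 0.05 over the 34 and 0.01 over all genes. Groups without overlap were found for 3 lipid genes higher in ACKR2-/- and 1 lower, while over all genes 8.61% were higher without overlap and 5.98% lower.

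The gene with the lowest p was Insig2, one of the proteins that retain SCAP in the endoplasmic reticulum. It read 9.37, 9.46 and 9.53 on the ACKR2-/- arrays against 9.14, 9.06 and 9.22 on the wild type arrays. All ACKR2-/- values lay above all wild type values, with a difference of 0.31 ± 0.11 (SE, n = 3 each), but the limma adjusted p was 0.423. Its partner Insig1, itself a target of SREBPs, read 11.57, 12.59 and 12.25 against 12.66, 12.31 and 11.94, with overlap and a difference of -0.17 ± 0.29 (limma adjusted p = 0.926). Scap, the SREBP escort, read 10.23, 10.32 and 10.55 on ACKR2-/- arrays against 10.21, 10.06 and 10.13, all higher by a small margin (0.24 ± 0.13, limma adjusted p = 0.581). The same order without overlap held for Srebf2, which encodes the SREBP that acts mainly on cholesterol genes, at 12.06, 12.19 and 12.11 against 11.88, 11.91 and 11.99 (0.20 ± 0.11, limma adjusted p = 0.595). Srebf1, whose products act mainly on fatty acid genes, overlapped at 10.54, 10.70 and 10.63 against 10.92, 10.77 and 10.61 (-0.14 ± 0.13). None of these 5 differences passed the threshold.

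Among the enzymes, Msmo1, the sterol C4-methyl oxidase, had the lowest p. It read 11.65, 12.69 and 12.48 on ACKR2-/- arrays against 12.25, 11.65 and 11.35 on wild type arrays, a difference of 0.52 ± 0.32 (limma adjusted p = 0.631), and ACKR2-/- array 1 lay inside the wild type range. The 17 measured synthesis enzymes had differences above 0 in 12 cases and below 0 in 5, with a median of 0.03, while 51.6% of all genes were above 0. By arm, 10 of the 11 genes from squalene to cholesterol and 2 of the 6 mevalonate genes were above 0. Scd1 and Scd2, the desaturases that make monounsaturated fatty acids, did not separate the genotypes. Scd1 read 12.01, 12.72 and 12.32 against 12.69, 12.13 and 11.68, and Scd2 read 13.38, 13.50 and 13.23 against 13.55, 13.35 and 13.35. Their differences were 0.19 ± 0.28 and -0.05 ± 0.13, with 95% intervals of -0.47 to 0.84 and -0.34 to 0.25.

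In transport and efflux, Npc2, the soluble lysosomal cholesterol carrier, had the lowest p, at 11.35, 11.33 and 11.16 on ACKR2-/- arrays against 11.37, 11.58 and 11.69. Its highest ACKR2-/- value was just under its lowest wild type value, with a difference of -0.27 ± 0.13 (limma adjusted p = 0.537). Mylip, a ubiquitin ligase that degrades the LDL receptor and is a target of liver X receptors, read 11.52, 11.22 and 10.84 against 10.55, 10.51 and 11.24 (0.43 ± 0.25, limma adjusted p = 0.605), with overlap through wild type array 3. The cholesterol exporter Abca1 read 10.91, 9.35 and 8.86 against 10.04, 9.94 and 10.40. ACKR2-/- array 1 was the highest and ACKR2-/- arrays 2 and 3 the lowest of the 6, and the difference of -0.42 ± 0.47 had the widest error of the 34. Abcg1, another sterol exporter, read 11.93, 11.26 and 11.32 against 11.51, 11.69 and 11.92, with the same split within the ACKR2-/- group. Nr1h3, which encodes liver X receptor alpha, read 7.55, 7.35 and 7.31 against 7.35, 7.72 and 7.69 (-0.18 ± 0.14).

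Of 31 other measured lipid genes, 0 were called at 10 weeks. Ggps1, the geranylgeranyl diphosphate synthase, had the lowest p, averaging 10.44 ± 0.08 on ACKR2-/- arrays and 10.02 ± 0.16 on wild type arrays (SD, n = 3 each; limma adjusted p = 0.400). Cd36, a fatty acid translocase and scavenger receptor, averaged 6.47 ± 1.54 and 8.34 ± 0.15 in the same order (limma adjusted p = 0.421). Without ACKR2-/- array 1, 506 genes were called, 2.54% of all, still with 0 of the 34. The 3 other lipid genes then called were all lower in ACKR2-/-, as were 406 of the 506. Their differences were -2.76 ± 0.15 for Cd36, -3.53 ± 0.38 for Lpl, the lipoprotein lipase, and -2.28 ± 0.44 for Pltp, the phospholipid transfer protein. The member nearest the threshold in that fit was Abca1, at -1.02 ± 0.21 with a limma adjusted p of 0.0627. The macrophage markers averaged 9.39, 7.29 and 7.10 on the ACKR2-/- arrays and 8.89, 10.14 and 9.58 on the wild type arrays. The array left out was thus the only ACKR2-/- array with a macrophage average inside the wild type range. The calls made without it depend on that choice of arrays, and the part of macrophage transcripts in these differences was not tested.

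A contrast between arrays of the same genotype at 10 weeks ran through nearly the whole sterol pathway. The order of arrays described here was noticed in the values, so it is given as a description with no test. ACKR2-/- array 1 and wild type array 3 were the lowest 2 of the 6 arrays in 16 of the 17 enzymes (94.1%), against 8.99% of all genes. The exception was Pmvk, the phosphomevalonate kinase, in which wild type array 3 lay above ACKR2-/- array 3. ACKR2-/- array 2 and wild type array 1 were the highest 2 in 13 of the 17 (76.5%), against 7.93% of all genes. Within genotypes, all 17 enzymes were higher on ACKR2-/- arrays 2 and 3 than on array 1, an order found in 39.6% of all genes. All 17 were also higher on wild type array 1 than on array 3, against 43.2% of all genes.

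The span from lowest to highest 10-week array had a median of 1.14 over the enzymes, with a range of 0.63 to 1.73, and of 0.53 over all genes. Fdft1, the squalene synthase that commits isoprenoids to sterols, had the widest span among them on the probe set used. It read 10.66, 11.78 and 11.29 on ACKR2-/- arrays against 11.47, 10.73 and 10.05 on wild type arrays. The span of its other probe set was not examined. Lss, the lanosterol synthase that closes the sterol rings, read 10.17, 11.53 and 11.23 against 11.24, 10.67 and 10.14. In both genes the span of single arrays inside each genotype exceeded the difference between the group means. These are unlike measures, so nothing is concluded from their sizes. Sqle, the squalene epoxidase and an oxygen-dependent step, read 10.88, 11.91 and 11.74 against 11.87, 11.49 and 11.07, and Hmgcs1, the HMG-CoA synthase at the entry of the mevalonate arm, read 10.49, 11.63 and 11.30 against 11.29, 10.91 and 10.57.

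**Figure D2:**
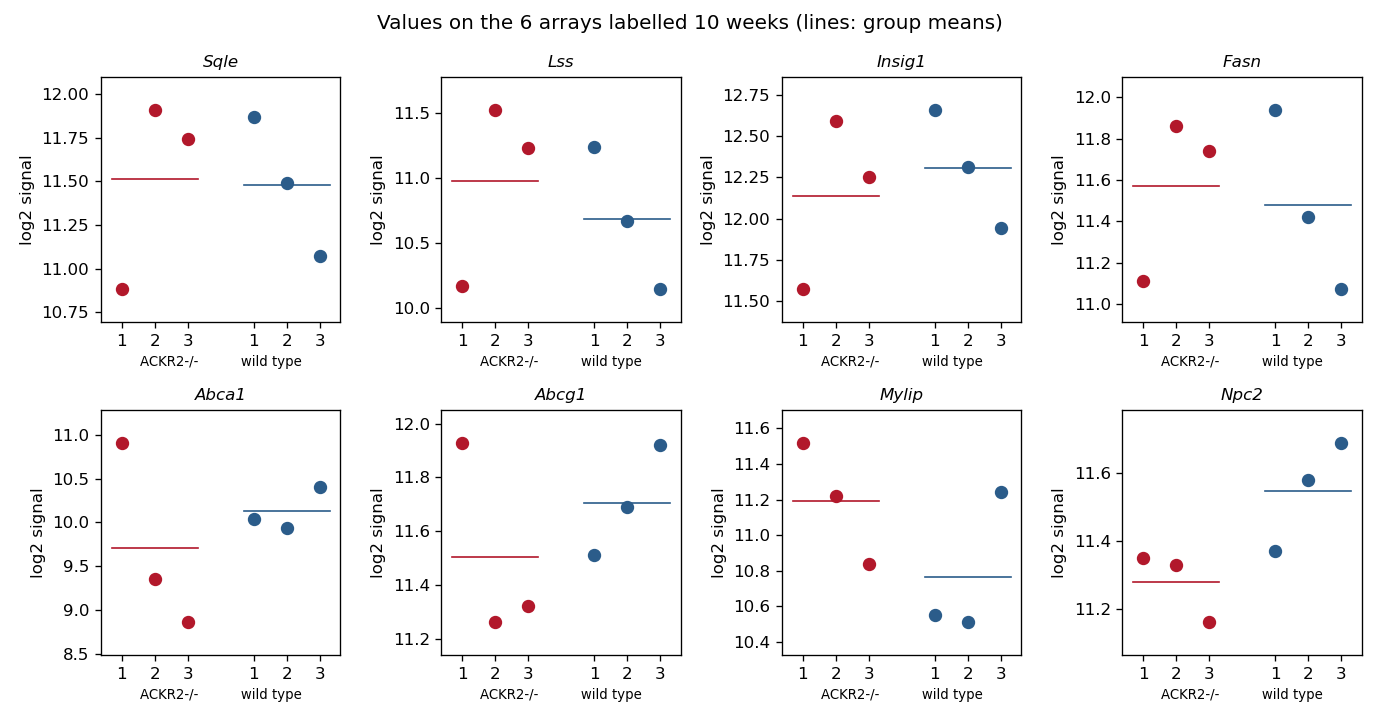
Points are log2 signals of 8 genes on the 6 arrays labelled 10 weeks, ACKR2-/- arrays 1 to 3 on the left and wild type arrays 1 to 3 on the right, and lines are group means. Vertical scales differ between panels and do not start at 0. Sqle, Lss, Insig1 and Fasn are low on ACKR2-/- array 1 and wild type array 3, whereas Abca1 and Abcg1 are highest on ACKR2-/- array 1.

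Fatty acid synthesis followed the same order in part. Acly, Fasn and Scd1, which encode the citrate lyase that supplies cytosolic acetyl-CoA, the fatty acid synthase and a desaturase, were the 3 of 5 fatty acid genes with ACKR2-/- array 1 and wild type array 3 lowest. Those 2 arrays were lowest in 8.99% of all genes. ACKR2-/- array 2 and wild type array 1 were the highest 2 in all 5, against 7.93% of all genes. Fasn read 11.11, 11.86 and 11.74 on ACKR2-/- arrays against 11.94, 11.42 and 11.07 on wild type arrays. Acaca, the acetyl-CoA carboxylase, read 9.86, 10.35 and 10.32 against 10.34, 9.78 and 9.80, with wild type arrays 2 and 3 lowest. Stard4, a cytosolic sterol carrier, went with the enzymes at 9.36, 10.48 and 10.13 against 10.09, 9.64 and 9.40.

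Most other transport and efflux genes ran differently. In 5 of the 7, ACKR2-/- arrays 2 and 3 were the lowest 2, against 10.9% of all genes, and in 4 of the 7, Npc1, Abca1, Abcg1 and Mylip, ACKR2-/- array 1 was the highest array, also against 10.9%. Npc1, the lysosomal membrane protein that exports cholesterol, read 11.82, 11.30 and 11.39 on ACKR2-/- arrays against 11.54, 11.56 and 11.45. Abca1 had a span of 2.05, the widest of the 34.

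Other lists moved with these orders, and their part in them was not tested. The 19 cell cycle genes averaged 9.65, 10.10 and 10.14 on the ACKR2-/- 10-week arrays and 11.12, 10.30 and 9.51 on the wild type ones. ACKR2-/- array 1 and wild type array 3 were the lowest 2 in 17 of the 19 (89.5%), against 8.99% of all genes. The highest 2 were ACKR2-/- array 2 and wild type array 1 in only 3 of the 19 (15.8%), against 7.93% of all genes. Of the 14 macrophage markers, 13 (92.9%, against 10.9% of all genes) had ACKR2-/- arrays 2 and 3 as the lowest 2, the order of most efflux genes. Neutrophil markers averaged 7.88, 6.86 and 6.70 on ACKR2-/- arrays and 9.27, 10.24 and 8.32 on wild type arrays. The mast cell average varied less, at 12.43, 11.96 and 11.91 against 12.60, 12.38 and 12.23. The enzyme average was 9.88, 10.87 and 10.54 against 10.75, 10.34 and 9.93.

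**Figure D3:**
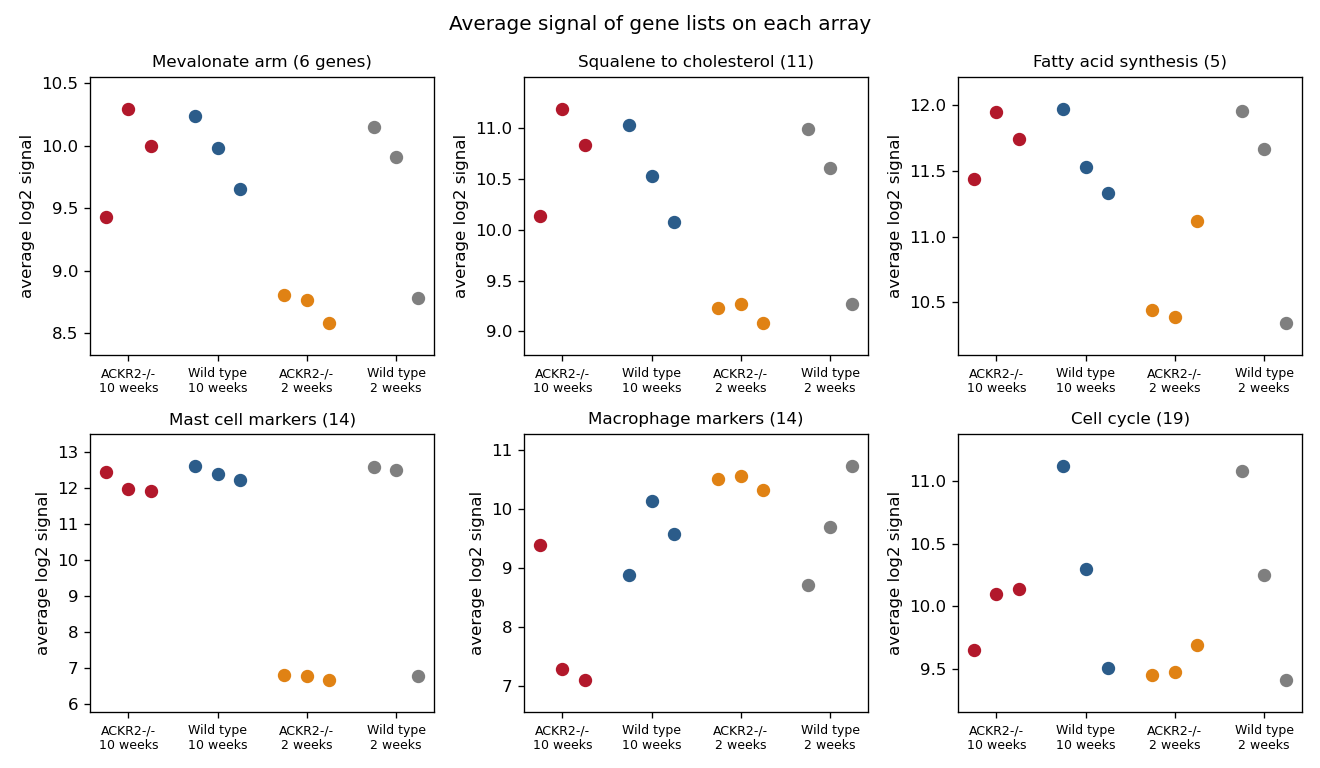
Each point is the average log2 signal of a gene list on 1 array, with arrays 1 to 3 of each labelled group from left to right. Vertical scales differ between panels and do not start at 0. The synthesis lists are lowest on the arrays without mast cell transcripts and vary by up to 1.11 among the 10-week arrays, while the mast cell list varies by 0.70 and the macrophage list by 3.04.

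The 10-week and 2-week ACKR2-/- arrays gave the only comparison with calls on all arrays at equal weight. Its p-values treat the ACKR2-/- 2-week arrays as independent samples, although arrays 1 and 2 resembled wild type 2-week array 3 more than ACKR2-/- array 3. At 10 weeks 19 of the 34 lipid genes were higher (against 15.0% of all genes called higher) and 1 was lower (against 10.1% called lower), while 14 did not pass. Groups did not overlap in 24 that were higher and 1 that was lower, against 26.7% and 17.7% of all genes. The median difference, 10 weeks minus 2 weeks, was 0.87 over the 34 and 0.06 over all genes. Because the 2-week ACKR2-/- arrays lack mast cell transcripts and differ in Xist and Kdm5d, time and the kind of cells on the arrays cannot be told apart here. Both the 13 of 14 mast cell markers that rose, with a list median of 5.69, and the macrophage markers, 7 of 14 of which fell, moved in the same comparison. Here and below, rose and fell describe differences between the 10-week and 2-week arrays. A change over time in the same cells cannot be read from them.

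In the mevalonate arm 4 of 6 genes rose, against 15.0% of all genes. Idi1, the isopentenyl diphosphate isomerase, read 10.47, 11.29 and 11.14 at 10 weeks against 8.77, 8.69 and 8.56 at 2 weeks, a difference of 2.29 ± 0.22 or 4.90-fold (limma adjusted p = 0.000782). Hmgcs1 rose by 1.66 ± 0.30, Mvk, the mevalonate kinase, by 1.10 ± 0.18, and Fdps, the farnesyl diphosphate synthase, by 1.06 ± 0.30, the last only just past the threshold at a limma adjusted p of 0.0496. Mvd, the mevalonate diphosphate decarboxylase, at 0.73 ± 0.24, and Pmvk, at 0.27 ± 0.16, were not called.

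From squalene to cholesterol 8 of 11 rose, against 15.0% of all genes. Sqle read 10.88, 11.91 and 11.74 at 10 weeks against 8.80, 8.89 and 8.42 at 2 weeks, without overlap, which is 6.99-fold (2.80 ± 0.29, limma adjusted p = 0.00107). Lss stood at 10.17, 11.53 and 11.23 against 8.48, 8.43 and 8.35 (2.55 ± 0.34, limma adjusted p = 0.00276), and Msmo1 at 11.65, 12.69 and 12.48 against 9.75, 9.94 and 9.59 (2.51 ± 0.27, limma adjusted p = 0.00133). These 3 steps had the largest differences of the 17 enzymes. Fdft1, Cyp51, the lanosterol demethylase, and Nsdhl, a sterol dehydrogenase, rose by 1.58 ± 0.27, 1.52 ± 0.26 and 1.40 ± 0.20. The late enzymes Sc5d and Dhcr7 rose by 0.89 ± 0.22 and 0.90 ± 0.21. Tm7sf2, a sterol C14 reductase, Hsd17b7, a sterol ketone reductase, and Ebp, the sterol isomerase, with differences of 1.20 ± 0.37, 0.74 ± 0.33 and 0.63 ± 0.24, did not pass.

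Of the control genes 3 of 5 rose, against 15.0% of all genes. Insig1 read 11.57, 12.59 and 12.25 at 10 weeks against 10.70, 10.63 and 10.59 (1.50 ± 0.25, limma adjusted p = 0.00718), whereas Insig2 read 9.37, 9.46 and 9.53 against 8.78, 8.85 and 9.59 and was not called (0.38 ± 0.22). On 2-week array 3 Insig2 lay above every 10-week value, and on 2-week arrays 1 and 2 below every one. Srebf1 was at 10.54, 10.70 and 10.63 against 10.09, 10.03 and 9.78 (0.66 ± 0.11, limma adjusted p = 0.00641). Srebf2 was at 12.06, 12.19 and 12.11 against 11.47, 11.47 and 11.66 (0.59 ± 0.09, limma adjusted p = 0.00456). Both SREBP genes thus rose without overlap, and Scap did not pass at -0.08 ± 0.11.

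Fatty acid synthesis had 3 of 5 genes higher, against 15.0% of all genes. Scd2 read 13.38, 13.50 and 13.23 at 10 weeks against 11.07, 10.93 and 11.37 at 2 weeks, the lowest p of the 34 (2.24 ± 0.14, 4.74-fold, limma adjusted p = 0.000139). Scd1, on the same chromosome 19, read 12.01, 12.72 and 12.32 against 10.54, 10.50 and 13.51 and was not called (0.84 ± 0.82). A single array, number 3 at 2 weeks, held Scd1 above every 10-week value, and among the 4 arrays set apart it also had the highest B cell list average, 11.64, and the lowest for T and NK cells, 8.74. Scd1 and Scd2 are related in sequence, and whether their probe sets share probes was not tested. Fasn rose by 1.09 ± 0.21 and Acaca by 0.85 ± 0.17, and Acly stood at 0.28 ± 0.13 without a call.

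In transport and efflux 1 of 7 rose and 1 fell, near the shares over all genes, 15.0% called higher and 10.1% called lower. Stard4 rose by 1.82 ± 0.28. Nr1h3 read 7.55, 7.35 and 7.31 at 10 weeks against 8.87, 8.87 and 8.75 at 2 weeks, the only fall among the 34 (-1.43 ± 0.09, limma adjusted p = 0.000178). Abca1, a target of the receptor that Nr1h3 encodes, read 10.91, 9.35 and 8.86 against 10.02, 10.03 and 11.45 and was not called (-0.79 ± 0.63), and Abcg1 read 11.93, 11.26 and 11.32 against 11.18, 11.20 and 11.10 (0.34 ± 0.19). Npc1, Npc2 and Mylip did not pass either, at 0.54 ± 0.17, 0.55 ± 0.34 and -0.07 ± 0.30. The 2-week array 3 again stood apart from its group, with Npc2 at 9.91 against 11.13 and 11.14 on arrays 1 and 2, and Mylip at 11.88 against 10.96 and 10.94.

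**Figure D4:**
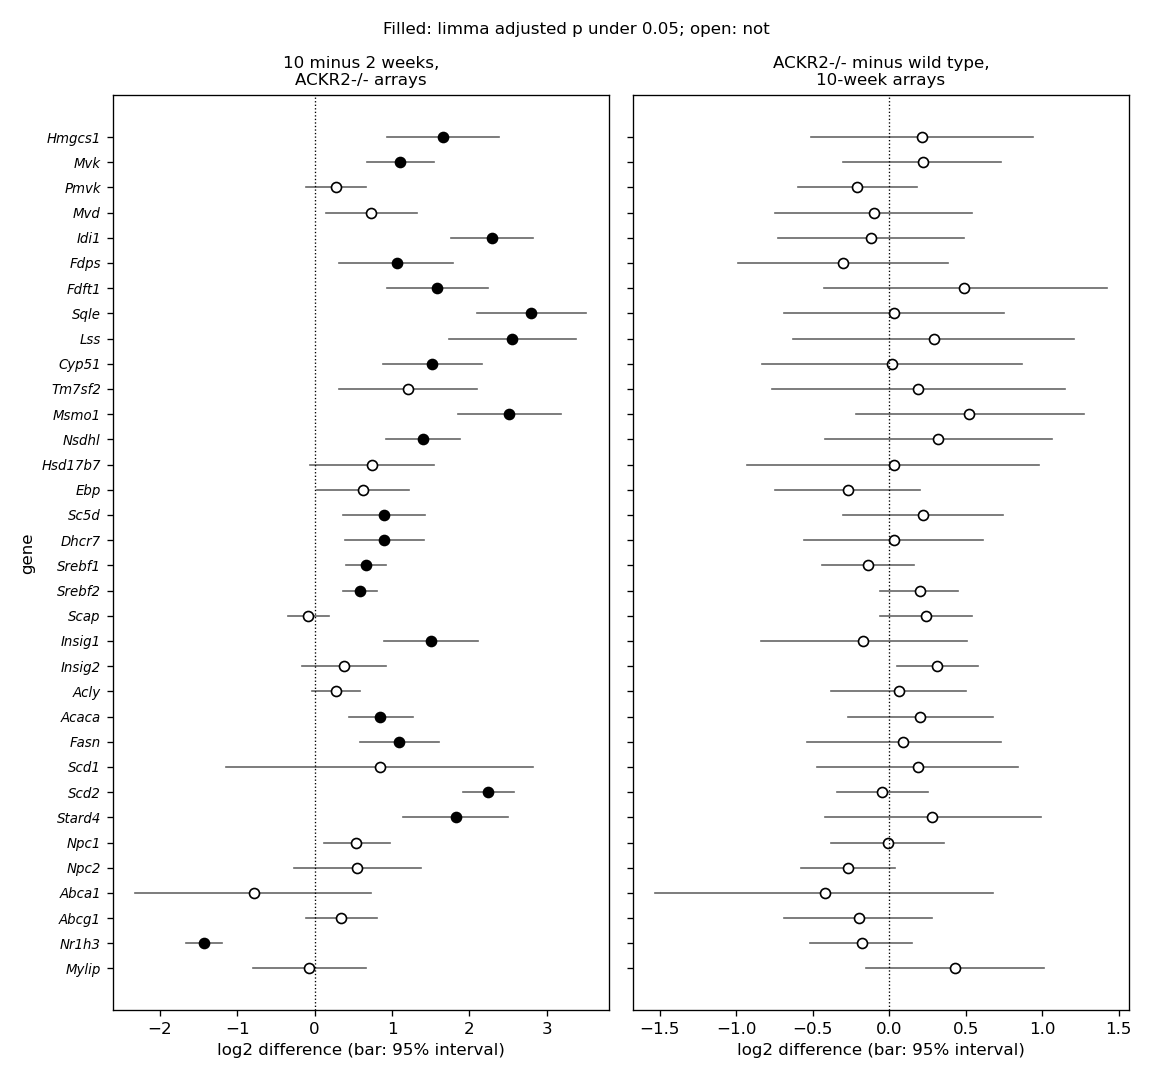
Points are log2 differences of the 34 genes with 95% intervals, on the left 10 minus 2 weeks in ACKR2-/- arrays and on the right ACKR2-/- minus wild type at 10 weeks. Filled points passed the threshold: 20 on the left, with Nr1h3 alone below 0, and 0 on the right. The horizontal scales differ.

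Other lipid genes showed 12 of 31 higher and 1 lower in the same comparison, against 15.0% and 10.1% of all genes. Fads2, the delta-6 desaturase of polyunsaturated fatty acids, averaged 12.56 ± 0.25 at 10 weeks and 8.21 ± 0.29 at 2 weeks (SD, n = 3 each), a 20.4-fold difference with a limma adjusted p of 3.52e-05. Tmem97, a sterol-regulated membrane protein, rose by 1.80 ± 0.11, and Lpcat3, a phospholipid acyltransferase, by 1.61 ± 0.14. Cyp27a1, the sterol 27-hydroxylase, fell by 2.39 on the log2 scale, to 7.53 ± 0.30 at 10 weeks against 9.91 ± 0.05 at 2 weeks.

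Between the genotypes at 2 weeks, 0 of the 34 lipid genes and 0% of all genes were called. Unadjusted, 9 of the 34 and 1454 of all genes (7.29%) had a limma p under 0.05. All 17 enzymes were below 0, as were 10886 of all 19938 genes. The median of the 34 was -0.70, against -0.02 over all genes. Hmgcs1 read 9.58, 9.61 and 9.25 on ACKR2-/- arrays against 11.12, 10.83 and 9.65 on wild type arrays (-1.05 ± 0.40, limma adjusted p = 0.464). Msmo1 read 9.75, 9.94 and 9.59 against 12.13, 11.91 and 9.94 (-1.57 ± 0.59), and Fdps, 8.64, 8.65 and 8.13 against 9.98, 9.73 and 8.64 (-0.98 ± 0.38). In each, wild type array 3 stood at or near the ACKR2-/- values. Dhcr7 read 9.69, 9.69 and 9.54 against 10.82, 10.42 and 9.91 (-0.74 ± 0.24), Insig1 read 10.70, 10.63 and 10.59 against 12.66, 12.28 and 10.87 (-1.30 ± 0.46), and Abcg1 read 11.18, 11.20 and 11.10 against 11.61, 11.74 and 11.27 (-0.38 ± 0.14). All 6 genes shared a limma adjusted p of 0.464. The groups did not overlap in 6 of the 34 genes that were lower in ACKR2-/-, namely Hmgcs1, Ebp, Dhcr7, Insig1, Npc2 and Abcg1, and in 1 that was higher, Mylip, against 8.60% and 4.97% of all genes.

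The other gene pairs at 2 weeks differed in which array stood apart. Scd2 read 11.07, 10.93 and 11.37 on ACKR2-/- arrays against 13.50, 13.41 and 10.95, and Scd1 read 10.54, 10.50 and 13.51 against 12.80, 12.42 and 10.34. Srebf1 read 10.09, 10.03 and 9.78 against 10.84, 10.80 and 10.05, and Srebf2 11.47, 11.47 and 11.66 against 11.96, 12.04 and 11.37. In Scd2, Scd1, Srebf1 and Srebf2 wild type array 3 lay below wild type arrays 1 and 2. Insig2 read 8.78, 8.85 and 9.59 against 9.15, 9.04 and 9.25. Abca1 read 10.02, 10.03 and 11.45 against 9.91, 10.06 and 10.09, and Nr1h3 read 8.87, 8.87 and 8.75 against 7.27, 7.56 and 9.33. In Insig2 and Abca1 the highest array was ACKR2-/- array 3, and in Nr1h3 it was wild type array 3.

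Left to wild type arrays 1 and 2, the only 2-week arrays with mast cell transcripts, the comparison called 23 of the 34 lower in ACKR2-/- (against 14.7% of all genes) and 1 higher, Nr1h3 (against 9.86%). Of the 17 enzymes 14 were lower, and Pmvk, Hsd17b7 and Ebp did not pass. Lss was at -2.69 ± 0.12, Sqle at -2.90 ± 0.18 and Idi1 at -2.29 ± 0.12, with limma adjusted p of 0.000196, 0.000489 and 0.000368. Nr1h3 was higher by 1.42 ± 0.12 (limma adjusted p = 0.00137). In this fit ACKR2-/- arrays without mast cell transcripts are set against wild type arrays with them, and all 14 mast cell markers were lower too. The same arrays differ in Xist and Kdm5d. Genotype, the kind of cells and the sex of the source therefore cannot be told apart. The enzymes averaged 9.09, 9.09 and 8.90 on the ACKR2-/- arrays and 10.70, 10.36 and 9.10 on wild type arrays 1 to 3, and the cell cycle genes 9.45, 9.48 and 9.69 against 11.08, 10.25 and 9.41.

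**Figure D5:**
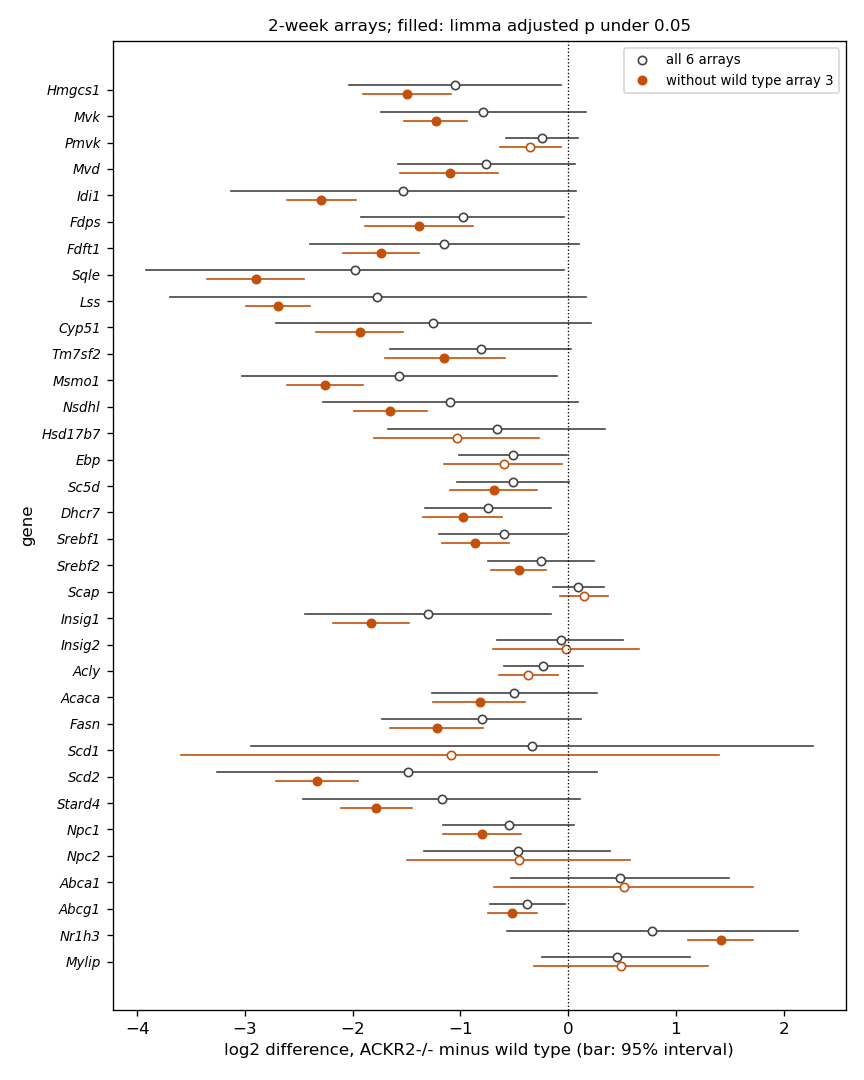
Points are log2 differences, ACKR2-/- minus wild type at 2 weeks, with 95% intervals for the 34 genes, in grey with all 6 arrays and in orange without wild type array 3. Filled points passed the threshold, which 0 did with all arrays and 24 did without that array.

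In wild type arrays, 10 weeks against 2 weeks gave 0 calls among the 34 and 0% of all genes. Without adjustment 2 of the 34 and 576 of all genes (2.89%) had a limma p under 0.05. The lowest p was that of Npc2, at 11.37, 11.58 and 11.69 at 10 weeks against 11.16, 11.22 and 11.22 at 2 weeks, higher on all 10-week arrays by 0.35 ± 0.14 (limma adjusted p = 0.974). Ebp followed at 10.85, 10.88 and 10.57 against 10.56, 10.38 and 10.20, also without overlap (0.39 ± 0.16). Scap lay lower on all 10-week arrays, at 10.21, 10.06 and 10.13 against 10.33, 10.27 and 10.46 (-0.22 ± 0.13). Pmvk read 8.26, 8.41 and 8.15 against 8.18, 8.12 and 7.82, and Idi1 11.47, 11.06 and 10.74 against 11.10, 10.82 and 8.68. In both genes 2-week array 3 was the lowest of the 6. Groups without overlap were found for 2 of the 34 higher at 10 weeks and 1 lower, against 5.29% and 3.45% of all genes. The median of the 34 was 0.18 with all arrays and -0.13 without wild type 2-week array 3, and no gene was called either way. Sqle illustrates the difference, at 0.79 ± 0.76 with that array and -0.13 ± 0.24 without it.

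Whether the time difference itself differed between genotypes was tested as an interaction over all 12 arrays. None of the 34 and 0% of all genes passed in limma, while 7 of the 34 and 2271 of all genes (11.4%) had an unadjusted p under 0.05. Msmo1 had a value of 2.09 ± 0.72 (limma adjusted p = 0.424). Without wild type 2-week array 3, 17 of the 34 were higher (against 9.78% of all genes called higher) and 1, Nr1h3, was lower at -1.60 ± 0.20 (against 5.96% called lower). Scd2, at 2.29 ± 0.20, had the lowest p of the 34 there (limma adjusted p = 2.96e-05). That fit again sets the ACKR2-/- 2-week arrays, which lack mast cell transcripts, against wild type arrays that have them. These arrays also differ in Xist and Kdm5d.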

How the data were processed

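Expression was measured on 12 single-colour arrays, 3 per group. The deposited values are log2 signals, for which the submitters' processing notes name Partek 6.5 and RMA, a method that corrects background, equalises the arrays and summarises probes; the genome build is not given in the sources used here. The values ran from 2.66 to 14.91 and array medians from 7.76 to 7.90. No detection calls, scan dates or scanner files were used, and the number of arrays limits the precision. Of 35399 probe sets, 21789 had 1 gene symbol. The probe set with the highest mean was kept per gene, which left 19938 genes. Each comparison was fitted with limma 3.58.1 in R 4.3.3 on its own 2 groups (the interaction on all 4), with Benjamini-Hochberg adjustment over all genes and a threshold of 0.05, after a test on simulated data. Errors are limma standard errors unless called SD.

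The 36 genes, the other lists, the tests and their alternatives were chosen with earlier results of these data known. All measured members could be named; per-array values follow the lowest 6 p per comparison and set gene pairs, and a few more genes were chosen after their values were seen. Of the replicate numbers, only those of wild type at 10 and 2 weeks passed the pairing check (correlations of same-numbered deviations 0.166 to 0.359, other numbers -0.266 to 0.023), a hint from the data only. Alternatives were all 12 arrays in 1 fit, the replicate block, array weights, median centring, the mean of a gene's probe sets, a filter on low genes and leaving out each array. Promoter windows came from RefSeq, GRCm38.p6.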

Additional observations from a re-analysis of the deposited data

How the results depend on the processing

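Called lipid genes at 10 weeks between genotypes stayed at 0 of 34 when any 1 array was left out (range 0 to 0), and their median difference, 0.046, ran from -0.086 without wild type array 3 to 0.286 without ACKR2-/- array 1, with -0.066 without ACKR2-/- array 2. At 2 weeks the count ran from 0 to 24 and the median from -1.064 to -0.493, the count of 24 without wild type array 3 only. For 10 against 2 weeks the count in ACKR2-/- arrays, 20, ran from 15 to 25 and the median from 0.694 to 1.099, and in wild type arrays the count stayed at 0 and the median ran from -0.129 (without 2-week array 3) to 0.371. The interaction count ran from 0 to 18, reaching 18 without wild type 2-week array 3. Leaving out an array moved the count over all genes in ACKR2-/- arrays, 5003, to between 3242 and 6006. With all 12 arrays in 1 fit, that time comparison called 14 of the 34 and 3358 of all genes. Array weights moved the counts among the 34 to 16 at 10 weeks, 29 at 2 weeks, 4 for time in wild type and 19 for the interaction, with 9498, 7573, 4529 and 4136 of all genes called. For time in ACKR2-/- arrays the weights raised the count to 29 of the 34, with 8714 of all genes called. The cause was not tested, and the weight estimation stopped before convergence in some fits. With array weights the wild type time median was -0.066. The wild type time difference of Scd2 turned to -0.003 with array weights and to -0.041 without 2-week array 3, and ran up to 1.238 when another array was left out. With the replicate number as a block, 0 lipid genes were called in 4 comparisons, the interaction included, and 18 for time in ACKR2-/- arrays, and the paired fit in wild type changed no call. No detection calls were at hand, so signal over background could not be examined.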
